A study of Mus musculus with 8 samples.

Results

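Transcripts of 10 core circadian clock genes were followed in cardiomyocytes, the contractile cells of the heart, purified from C57BL6/J mouse pups on postnatal day 2. The genes were taken by symbol: Clock, Arntl, Per1, Per2, Per3, Cry1, Cry2, Nr1d1, Nr1d2 and Dbp. All 10 were found among the 48440 entries of the count table, and all 10 passed the filter on low counts that left 13771 genes for testing. One male and 1 female heart came from each of 4 litters, which gave 8 libraries, 4 per sex and 2 per litter. None of the groups carried a transgene or received a treatment according to the labels. The comparison between litters asked whether the clock stood at different phases in different litters, and the labels give no time of day for the collection.

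The mammalian clock is a transcriptional loop. CLOCK pairs with BMAL1, the product of Arntl, and the pair binds E-box sequences and switches on the Per, Cry and Nr1d genes and Dbp. PER and CRY proteins then block the pair, REV-ERB proteins from Nr1d1 and Nr1d2 repress Arntl through ROR elements, and DBP acts on D-box sequences of further genes. In an adult tissue with synchronised cells, Arntl transcripts peak when those of Nr1d1 and Dbp are low. In heart muscle the clock is known for timing metabolic and ion channel genes. Per1 also responds directly to acute signals such as cAMP and glucocorticoids.

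The start regions of the period and cryptochrome genes are shown because these genes, with Clock, were the ones called higher in litter 3 further on. RefSeq promoters on GRCm38.p6, each running from 250 bases before to 50 bases after a start, were found for 9 of the 10 genes, 13 promoters in all; Per2 had no entry. The 250 bases before the start are printed 5′ to 3′ on the strand of the gene, with motif matches in capitals. Per1 (chr11:69098699-69098948, plus strand) has the E-box CACGTG in the first of its 2 promoters and no match in the second, which is not shown, Per3 (chr4:151044666-151044915, minus strand) has 2 D-boxes of the form TTANGTAA, Cry1 (chr10:85185055-85185304, minus strand) has an E-box and, on its opposite strand, the variant CACGTT, and Cry2 (chr2:92434070-92434319, minus strand) has that variant on its opposite strand.
Per1: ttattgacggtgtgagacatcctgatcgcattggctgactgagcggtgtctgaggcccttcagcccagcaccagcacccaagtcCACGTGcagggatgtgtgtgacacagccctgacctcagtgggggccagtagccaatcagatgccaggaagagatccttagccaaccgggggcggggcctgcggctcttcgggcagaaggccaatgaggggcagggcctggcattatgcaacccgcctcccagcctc
Per3: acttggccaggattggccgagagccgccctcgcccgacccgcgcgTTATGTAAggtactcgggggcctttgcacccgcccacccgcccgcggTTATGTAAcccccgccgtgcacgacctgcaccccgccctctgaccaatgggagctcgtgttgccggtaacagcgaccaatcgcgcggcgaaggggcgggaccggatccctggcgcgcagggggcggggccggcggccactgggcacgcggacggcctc
Cry1: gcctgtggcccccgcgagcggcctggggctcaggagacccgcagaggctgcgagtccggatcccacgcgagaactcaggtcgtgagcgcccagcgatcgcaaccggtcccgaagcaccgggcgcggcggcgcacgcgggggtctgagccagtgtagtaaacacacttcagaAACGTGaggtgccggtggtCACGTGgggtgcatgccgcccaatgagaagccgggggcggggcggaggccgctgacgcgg
Cry2: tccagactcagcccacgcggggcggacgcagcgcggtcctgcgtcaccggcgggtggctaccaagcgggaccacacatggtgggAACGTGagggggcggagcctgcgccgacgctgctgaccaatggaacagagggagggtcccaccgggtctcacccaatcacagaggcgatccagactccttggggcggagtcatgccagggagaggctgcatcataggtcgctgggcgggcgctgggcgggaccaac

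Searching both strands of all 32851 promoters of the same length gave the share that holds each motif. The E-box CACGTG was in 7.15% of them and in 2 of the 13 clock gene promoters, those of Cry1 and the first of Per1. Its variant CACGTT was in 4.68% and in 3 of the 13, those of Cry1, Cry2 and Nr1d1. The D-box TTANGTAA was in 2.32% and in 1 of the 13, that of Per3. The ROR element, searched as TAGGTCA or TGGGTCA, was in 6.45% and in 1 of the 13, the second of Arntl, 30 bases after a start (chr7:113207531-113207557, plus strand, GRCm38.p6), where it is the target through which REV-ERB is known to act.
Arntl site: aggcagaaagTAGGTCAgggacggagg
These windows are short, the motifs do not overlap one another in them, and a match is a string of letters, not a measured binding site.

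The labelled cell type was checked against marker genes. Summed over 8 cardiomyocyte markers, libraries held 55780 to 77780 CPM (counts per 1000000, after TMM scaling of library sizes), against 32.4 to 243.2 CPM for 8 fibroblast markers and 15.1 to 141.4 CPM for 8 endothelial markers. Sums were 828.7 to 1444 CPM for 6 mural markers, of which Acta2 and Abcc9 had the most counts, 97.7 to 528.9 CPM for 6 erythroid markers and 5.64 to 10.1 CPM for 6 macrophage markers. Among the last, Cd68 had 51 to 186 counts per library, Mrc1 13 to 37 and Lyz2 8 to 15, while Csf1r, Adgre1 and C1qa had at most 7, 2 and 4. Total counts ran from 14226342 in the female of litter 3 to 24910243 in the male of litter 1. Each clock gene had at least 159 counts in every library, the value of Arntl in the female of litter 3. In bulk samples, fewer cells of a type and less RNA per cell cannot be told apart.

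Levels of different genes were compared per kilobase of merged exon (GENCODE M21). Nr1d2 stood highest, at 19.8 ± 2.49 CPM per kb (SD, n = 8). Dbp followed at 13.2 ± 3.27, Nr1d1 at 12.9 ± 1.76 and Per1 at 12.2 ± 5.53 CPM per kb, and these 3 differed by less than their spread over libraries. Per3 had 7.33 ± 1.79 and Clock 6.96 ± 0.808 CPM per kb, again within their spread. Cry1, Per2 and Cry2 lay together at 4.29 ± 0.532, 4.24 ± 1.68 and 4.10 ± 0.821 CPM per kb. Arntl was the lowest at 1.49 ± 0.304 CPM per kb, and its highest library, at 2.12, lay under the lowest library of every other gene, the nearest being Per2 at 2.92. The repressors and the output gene were thus all read at higher levels per kb of merged exon than Arntl. This rests on the length used, 7523 merged exon bases for Arntl, 5856 for Per2 and 3340 for Cry1. Before division by length, the highest Arntl library, at 15.9 CPM, lay above the lowest of Cry1, at 11.9 CPM. It stayed under the lowest library of each other gene, the nearest being Per2 at 17.1 CPM. Other gene lengths, such as that of a single transcript, were not tested.

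**Figure D1:**
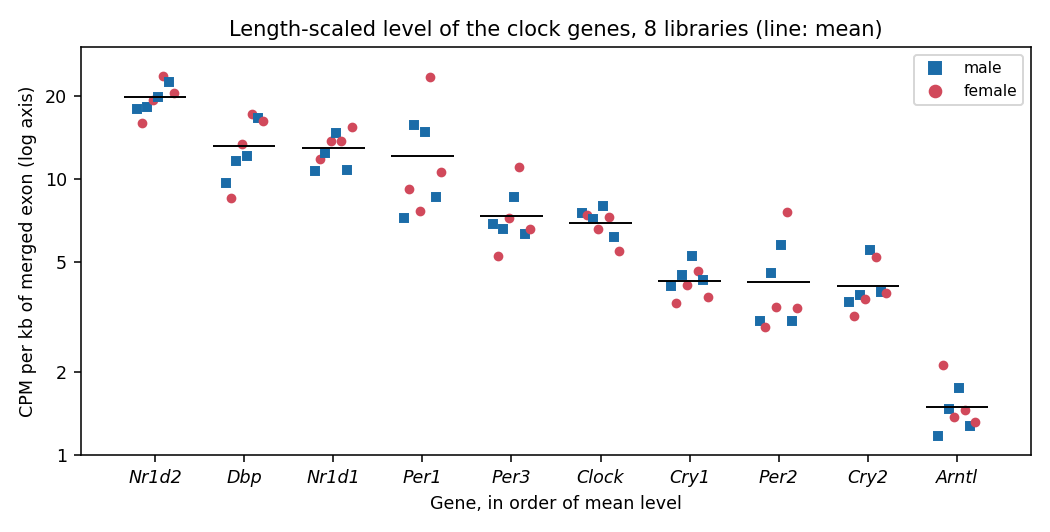
Level of each clock gene in CPM per kb of merged exon, on a log axis, for 4 male (squares) and 4 female (circles) libraries, with a line at the mean of 8. Nr1d2 stands at the top with 19.8 CPM per kb and Arntl at the bottom with 1.49, below every library of the other genes on this scale.

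Litter was tested for each gene in edgeR's quasi-likelihood test with sex in the model. On simulated data this test made more false calls than its threshold allows, so calls close to the threshold are weak. Of the 10 clock genes, 7 differed between litters at a Benjamini-Hochberg adjusted p-value under 0.05, where 32.1% of the 13771 genes did. They were Per2 (0.000623), Cry2 (0.000918), Dbp (0.00322), Per3 (0.00655), Clock (0.00689), Per1 (0.0201) and Nr1d2 (0.0335). Cry1 (0.0709), Nr1d1 (0.142) and Arntl (0.475) did not pass. The distance between the highest and the lowest litter was 1.20 on the log2 scale for Per1, 1.15 for Per2, 0.84 for Dbp, 0.69 for Per3 and 0.67 for Cry2, and between 0.33 and 0.39 for the other 5. The median over the 10 genes was 0.53, against 0.37 over all genes tested. Litter means in log2 CPM lay further apart than the widest gap between a male and a female of 1 litter for 8 of the 10, the exceptions being Arntl and Nr1d1.

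Leaving out litter 3 kept 3 of the 10 past the threshold, Clock (0.0232), Nr1d2 (0.0368) and Dbp (0.00107), where 13.7% of genes then passed. Per2 (0.0835), Cry2 (0.292), Per1 (0.339) and Per3 (0.46) lost the call without it. The call of Per1 was also lost with DESeq2 (0.231). Without the female of litter 3 alone, Per1 (0.207), Per3 (0.0939) and Nr1d2 (0.0507) lost it. The call of Nr1d2 was also lost without the female of litter 1 (0.205), the male of litter 4 (0.0616) or litter 1 (0.206), that of Dbp without litter 1 (0.0649), and that of Clock without litter 4 (0.214). In all, 3 genes gained a call in some fits: Arntl without the male of litter 1 (0.0295), Cry1 with library size alone as the scale (0.0334) or without litter 2 (0.046), and Nr1d1 with no filter on low counts (0.0291) or without the male (0.0282) or female (0.0329) of litter 4 or both (0.0304). A fit that leaves 1 library in a litter assumes that it varies like the others.

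**Figure D2:**
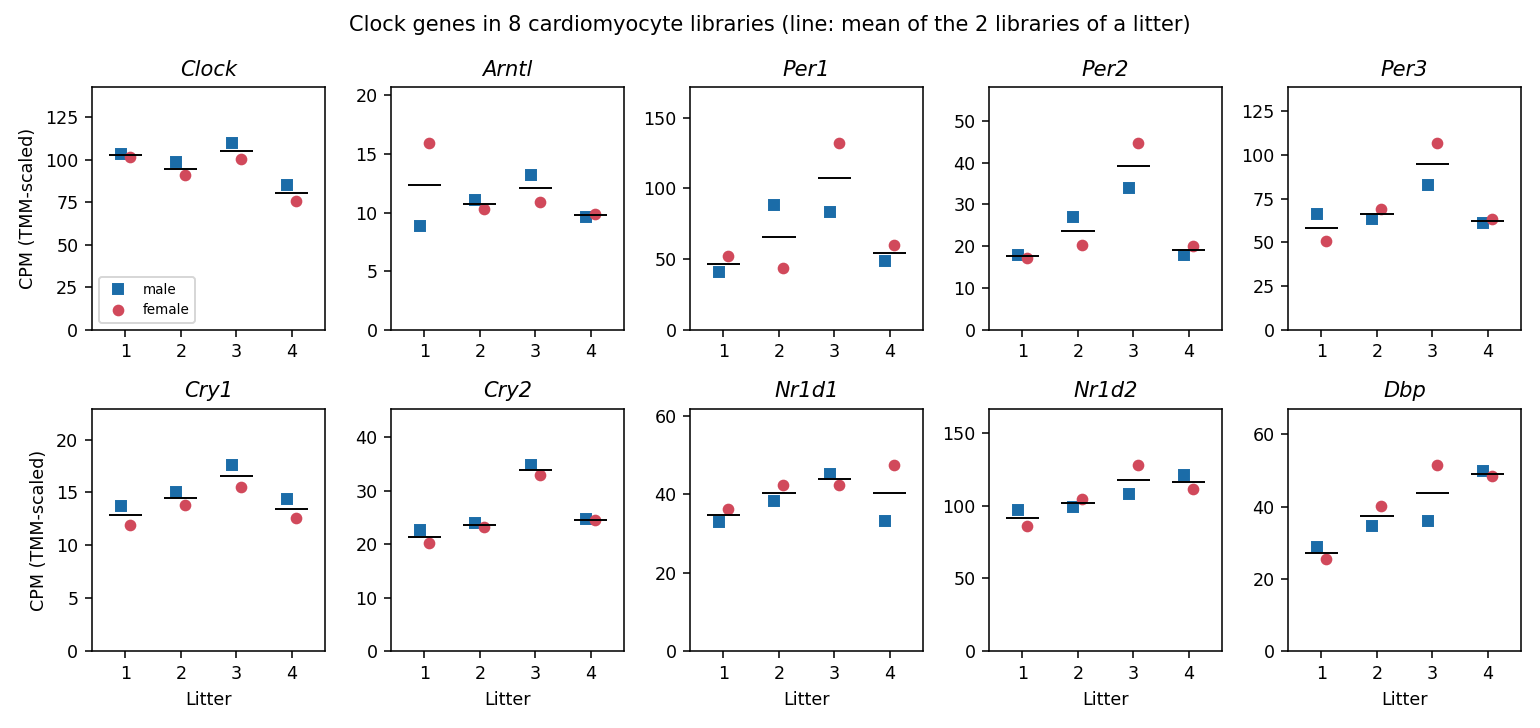
TMM-scaled CPM of the 10 clock genes by litter, with a square for the male, a circle for the female and a line at their mean. Per2, Per3, Cry1 and Cry2 have both libraries of litter 3 above the other 6, Dbp climbs from 25.7 and 28.9 CPM in litter 1 to 48.5 and 49.8 CPM in litter 4, and the female of litter 1 stands apart for Arntl at 15.9 CPM.

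Each litter was next set against the mean of the other 3, in 4 comparisons that share libraries. Litter 3 had 6 of the 10 clock genes higher and 0 lower past the threshold, where 13.6% of all genes were called higher and 14.8% lower (28.3% in all). All 10 differences were above 0, as were 50.01% of those of all genes, and their median was 0.26 on the log2 scale against 0.00 over all genes. The 6 were Per1, Per2, Per3, Cry1, Cry2 and Clock, that is all the period and cryptochrome genes and 1 of the activator pair. Both libraries of litter 3 lay above the other 6 for 4 of them, Per2, Per3, Cry1 and Cry2, where 15.1% of genes showed this, and none lay below them, as 16.4% of genes did.

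Per2, a repressor of the loop, had 33.9 CPM in the male and 44.7 CPM in the female of litter 3. In the other litters the males had 18.0, 26.9 and 18.0 CPM and the females 17.1, 20.2 and 20.0 CPM, in the order of litters 1, 2 and 4. Both animals of litter 3 were thus above all others, and the male of litter 2 came next. The log2 difference of litter 3 was 0.97 (SE 0.12, edgeR adjusted p = 0.000126), a 1.96-fold level. Per2 passed under all 16 alternative settings tried, as did Cry2.

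Cry2, the second cryptochrome, reached 34.9 CPM in the male and 33.0 CPM in the female of litter 3, whereas the other 6 libraries held 20.2 to 24.7 CPM. The 2 animals of a litter were close in every litter, with a log2 gap of at most 0.16, the narrowest of the 10 genes. Cry2 was higher in litter 3 by 0.55 (SE 0.07, adjusted p = 0.000192). Of its merged exon bases, 4.67% lie opposite exons of D930015M05Rik.

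Per1, the period gene that also answers acute signals, had 83.3 CPM in the male and 131.9 CPM in the female of litter 3. The male of litter 2 had 88.5 CPM and its sister 43.3 CPM, so that the groups overlapped, and the other 4 libraries had 40.8 to 60.0 CPM. Its log2 difference was 0.95 (SE 0.21, edgeR adjusted p = 0.00664). The call was lost with DESeq2 (0.0933) and without the female of litter 3, when it was 0.53 (0.203). Per3 had 83.0 and 106.7 CPM in litter 3 against 50.7 to 69.3 CPM elsewhere, a difference of 0.60 (SE 0.10, adjusted p = 0.0015), and 0.38 without the female of litter 3 (0.0635).

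Cry1 and Clock had the smallest of the 6 differences. Cry1 reached 17.6 and 15.5 CPM in litter 3, with 11.9 to 15.0 CPM elsewhere, a difference of 0.29 (SE 0.09, edgeR adjusted p = 0.0293). That call was lost in 8 of 16 alternative settings, with DESeq2 (0.135), without the sex term (0.0656), and without the male of litter 1 (0.0586), the female of litter 1 (0.0653), the male of litter 2 (0.0574), the male (0.187) or female (0.149) of litter 3, or litter 1 (0.108). Clock, at 109.6 and 100.5 CPM in litter 3, overlapped litter 1 at 103.3 and 101.5 CPM. Its difference was 0.19 (SE 0.06, adjusted p = 0.0297), lost without the sex term (0.0593), the male of litter 1 (0.0947), the male (0.19) or female (0.158) of litter 3, or litter 4, which left 0.10 (0.236).

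The other 4 genes did not pass in litter 3. Arntl differed by 0.17 (SE 0.18, adjusted p = 0.496), Nr1d1 by 0.20 (SE 0.10, 0.132), Nr1d2 by 0.20 (SE 0.08, 0.0836) and Dbp by 0.23 (SE 0.11, 0.126). In some settings 3 of them passed: Nr1d2 with library size alone (0.0346), no filter on low counts (0.0334), or without the male of litter 3 (0.0247) or litter 4 (0.0188), Dbp with no filter (0.0267) or without the male of litter 3 (0.0128) or litter 4 (0.0121), and Nr1d1 without the female of litter 4 (0.0184) or litter 4 (0.0318). No clock gene was called lower there. With an SE of 0.18, the difference of Arntl was not told apart from 0 in either direction.

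Several other transcripts moved in litter 3 as well. All 10 genes of an immediate-early list, among them Fos, Egr1 and Nr4a1, were higher past the threshold, by 0.84 to 1.94 on the log2 scale, where 13.6% of all genes were called higher, and their summed level was 1467 and 1363 CPM in its male and female against 356.3 to 649.1 CPM in the other 6. Of 7 glucocorticoid-induced genes 3 were higher (Mt1, Mt2 and Fkbp5), with sums of 206.5 and 235.3 CPM against 136.9 to 150.0 CPM. Cardiomyocyte markers summed to 56940 and 55780 CPM against 66870 to 77780 CPM, with 4 of 8 lower. Also lower were 6 of 8 fibroblast, 6 of 8 endothelial and 4 of 6 mural markers, where 14.8% of all genes were called lower. Fibroblast sums were 51.8 and 32.4 CPM against 107.7 to 243.2 CPM, and mural sums 848.7 and 828.7 CPM against 1277 to 1444 CPM. Endothelial sums of 16.7 and 18.0 CPM overlapped the other libraries, of which the male of litter 1 had 15.1 CPM. Of 5 erythroid markers tested 2 were higher, with sums of 528.9 CPM in the male and 183.7 CPM in the female against 97.7 to 243.4 CPM. The part of these transcripts in the clock gene differences was not tested.

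**Figure D3:**
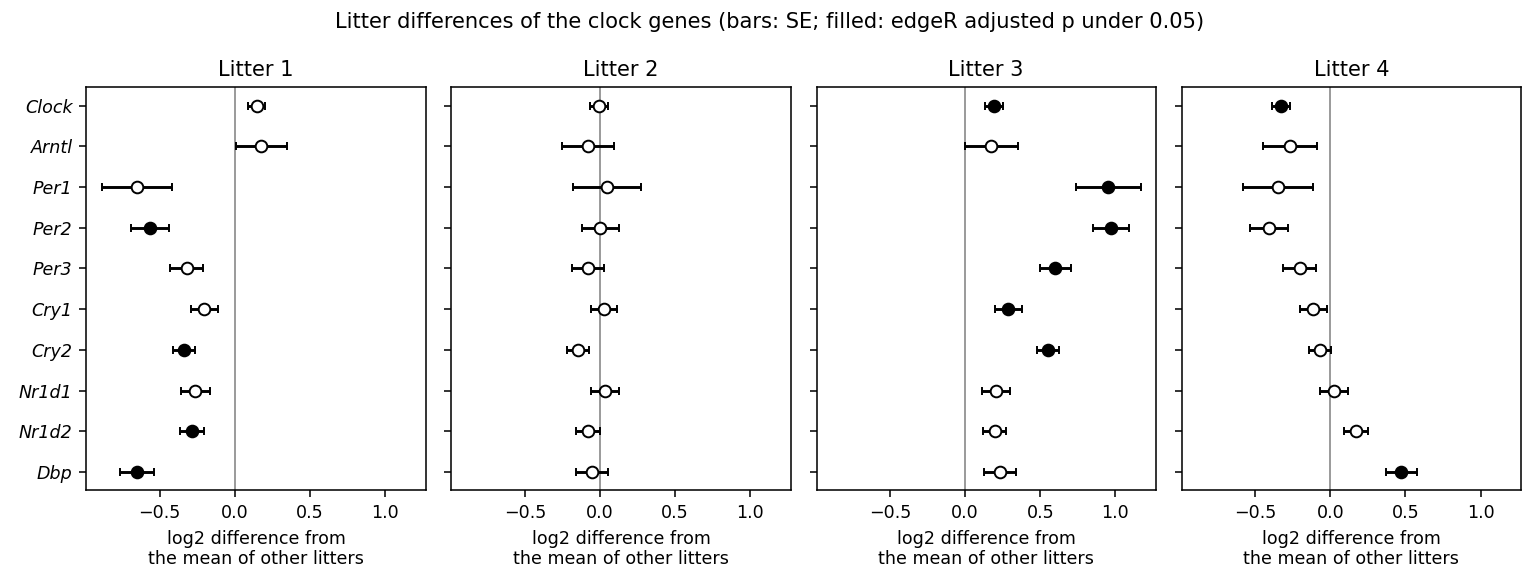
Log2 difference of each clock gene in a litter from the mean of the other 3 litters, 1 panel per litter, with bars of 1 SE and filled points for an edgeR adjusted p-value under 0.05. Filled points are all to the right in litter 3 (6 genes) and all to the left in litter 1 (4 genes), while litter 4 has Clock on the left at -0.33 and Dbp on the right at 0.47.

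Litter 1 had 4 of the 10 clock genes lower and 0 higher past the threshold, where 5.41% of all genes were called lower and 7.86% higher (13.3% in all). They were Dbp, Per2, Cry2 and Nr1d2. The median of the 10 differences was -0.30, against -0.00 over all genes, and 8 of 10 were below 0. The 2 above 0 were the activator pair, Clock at 0.14 (SE 0.06, adjusted p = 0.128) and Arntl at 0.18 (SE 0.17, 0.542), neither past the threshold. For Dbp, Cry2 and Nr1d2 both libraries of litter 1 lay below the other 6, where 8.67% of genes showed this, and none lay above, as 8.89% of genes did. Also lower in litter 1 were 6 of the 10 immediate-early and 3 of the 7 glucocorticoid-induced genes, with 0 higher in either list. In litter 2 all 10 immediate-early genes were lower, where 0.879% of all genes were, and no clock gene passed. The part of these transcripts in the clock gene differences was not tested.

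Dbp encodes the D-box activator that serves as the clock's classic output. It had 28.9 and 25.7 CPM in the male and the female of litter 1, 34.7 and 40.1 CPM in litter 2, 36.2 and 51.6 CPM in litter 3, and 49.8 and 48.5 CPM in litter 4. Litter 1 was the lowest in both sexes and litters 3 and 4 overlapped. Litter 1 was lower by a log2 difference of -0.65 (SE 0.11, edgeR adjusted p = 0.0031), or 63.7% of the level of the others, and litter 4 was higher by 0.47 (SE 0.10, 0.0169). The call in litter 1 was lost without its female, at -0.46 (0.111). In litter 4 the call was lost without its male (0.197), its female (0.0594) or litter 1 (0.0926).

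Sequence overlap bears on this gene, since 18.0% of the merged exon bases of Dbp lie opposite exons of Sphk2 and whether counting used strand is not given in the sources used here. Sphk2 had 16.3 to 25.9 CPM, with differences of -0.25 in litter 1 (adjusted p = 0.126) and 0.24 in litter 4 (0.144), neither past the threshold. The same holds for Nr1d1, of which 8.55% lies opposite Thra. Thra was lower in litter 1 by -0.26 (0.0118) and higher in litter 3 by 0.17 (0.04), while Nr1d1 had -0.26 (SE 0.10, 0.0957) and 0.20 there and passed in neither. The share of reads from the opposite gene was not tested.

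Nr1d2, the more abundant of the REV-ERB genes, had 96.9 and 86.1 CPM in litter 1, 98.9 and 104.8 CPM in litter 2, 107.7 and 128.0 CPM in litter 3, and 121.1 and 111.2 CPM in litter 4. Litter 1 was lowest in each sex, and the order of litters was that of Dbp in the males and in the females. Its log2 difference in litter 1 was -0.29 (SE 0.08, edgeR adjusted p = 0.0356). That call was lost without the male (0.0872) or female (0.52) of litter 1, the female of litter 2 (0.0578), the female of litter 3 (0.0535), the male of litter 4 (0.0648), litter 3 (0.0557) or litter 4 (0.0584), and without the female of litter 1 the difference was -0.17.

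The repressor genes Per2 and Cry2 were also called lower in litter 1. Per2 differed there by -0.57 (SE 0.13, edgeR adjusted p = 0.0141) and Cry2 by -0.34 (SE 0.07, 0.0114). Litter 3 enters the mean they were set against, and without it the differences were -0.27 (0.164) and -0.17 (0.232). Both calls were also lost when the male of litter 1 (0.105 for each) or its female (0.188 and 0.25) was left out. Other clock genes passed as lower in litter 1 in some settings. Per1 did with no filter on low counts (2.57e-14), without litter 2 (0.00013) or without litter 4 (0.044). It also did without the male or female of litter 2 or the male of litter 3. Per3 did with no filter (0.000919), or without litter 2 (0.0319), litter 4 (0.0335), the male of litter 1 or the male of litter 3. Nr1d1 did with no filter (0.0213), or without litter 4 (0.0298), the female of litter 3 or the male of litter 4. The small p-values with no filter need care. The Per1 range over litters was 1.20 with and without the filter, yet its edgeR adjusted p went from 0.0201 to 9.35e-41. DESeq2 gave 0.231 for that range.

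In litter 4 Clock was lower and Dbp higher, where 5.8% and 4.71% of all genes were called in these directions (10.5% in all). Clock had 84.9 CPM in the male and 75.6 CPM in the female, both below the 90.7 to 109.6 CPM of the other 6 libraries, which 8.8% of genes showed for this litter, and no clock gene lay above the others, as 8.23% of genes did. Its difference was -0.33 (SE 0.06, edgeR adjusted p = 0.00851), and -0.29 without the female of litter 4 (0.0861). Per2, at 18.0 and 20.0 CPM, had a larger difference in litter 4, -0.41 (SE 0.13, 0.0627), which did not pass. It passed with library size alone (0.0288), DESeq2 (0.0498), no filter on low counts (0.000533), and without the female of litter 2 (0.012), the male of litter 3 (0.017), litter 1 (0.0155) or litter 2 (0.0161), and was -0.08 without litter 3 (0.658). Per1 passed as lower with no filter (0.000317) or without the female of litter 2 (0.0032) or litter 2 (0.0155), and Per3 without litter 1 (0.0281). Arntl, the partner of Clock, had 9.61 and 9.91 CPM and a difference of -0.27 (SE 0.18, 0.355). Mitochondrial genes took 18.5% of the reads counted in the litter 4 male, against 13.4% to 15.2% in the other 7 libraries, and the part of this in the result was not tested. Without litter 3, Clock stayed lower in litter 4 (-0.30, 0.0136) and Dbp (0.62, 0.00117) and Nr1d2 (0.27, 0.0266) were higher there.

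Litter 2 lay nearest to the mean. None of the 10 clock genes passed there in edgeR (0 at an unadjusted p-value under 0.05) or in DESeq2 (0 likewise), where 4.18% of all genes passed in edgeR, 3.3% higher and 0.879% lower. No clock gene had both libraries above or below the other 6, where 4.79% and 3.6% of genes did. Differences ran from -0.15 for Cry2 to 0.05 for Per1. Within this litter Per1 had the widest male to female gap of the whole set, 1.03 on the log2 scale. Its difference in litter 2 was -0.79 without the male of that litter (0.00632) and 0.70 without the female (0.00663), and Cry2 passed there without litter 1 (-0.29, 0.0482).

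Arntl, the gene of the partner of CLOCK, had 8.87, 11.1, 13.2 and 9.61 CPM in the males and 15.9, 10.3, 10.9 and 9.91 CPM in the females of litters 1 to 4. The highest and the lowest of the 8 values both came from litter 1. That gap, 0.84 in log2 CPM, exceeded the distance of 0.30 between litter means. Litter was not called for Arntl, with a fitted range of 0.33 (edgeR adjusted p = 0.475) and counts of 159 to 387 per library. Without the male of litter 1 the range was 0.76 and passed (0.0295), with the female as the 1 library of that litter.

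Because Arntl and the E-box driven genes run in opposite phase in a synchronised tissue, each gene was also expressed relative to Arntl, as a difference of log2 CPM within a library and without a test. Clock minus Arntl had litter means of 3.10, 3.13, 3.12 and 3.03 in litters 1 to 4, a range of 0.10. Nr1d1 minus Arntl had 1.53, 1.90, 1.86 and 2.01, a range of 0.48. Per2 minus Arntl had 0.558, 1.11, 1.69 and 0.953, and Dbp minus Arntl had 1.19, 1.79, 1.84 and 2.32, each with a range of 1.13. The 2 ratios did not place the litters in the same order, with litter 3 highest for Per2 and litter 4 highest for Dbp. Within litter 1 the male and the female differed by 0.86 for Clock and 0.70 for Nr1d1, more than the ranges between litters, and by 0.91 for Per2 and 1.01 for Dbp, a little less than theirs. The same gap was above the range for Per3 (1.22 against 0.69), Cry1 (1.04 against 0.35), Cry2 (1.00 against 0.65) and Nr1d2 (1.01 against 0.63), which makes 6 of the 9 ratios, while for Per1 the widest gap in any litter was 0.93 against 1.17. That female was the library with the highest Arntl.

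**Figure D4:**
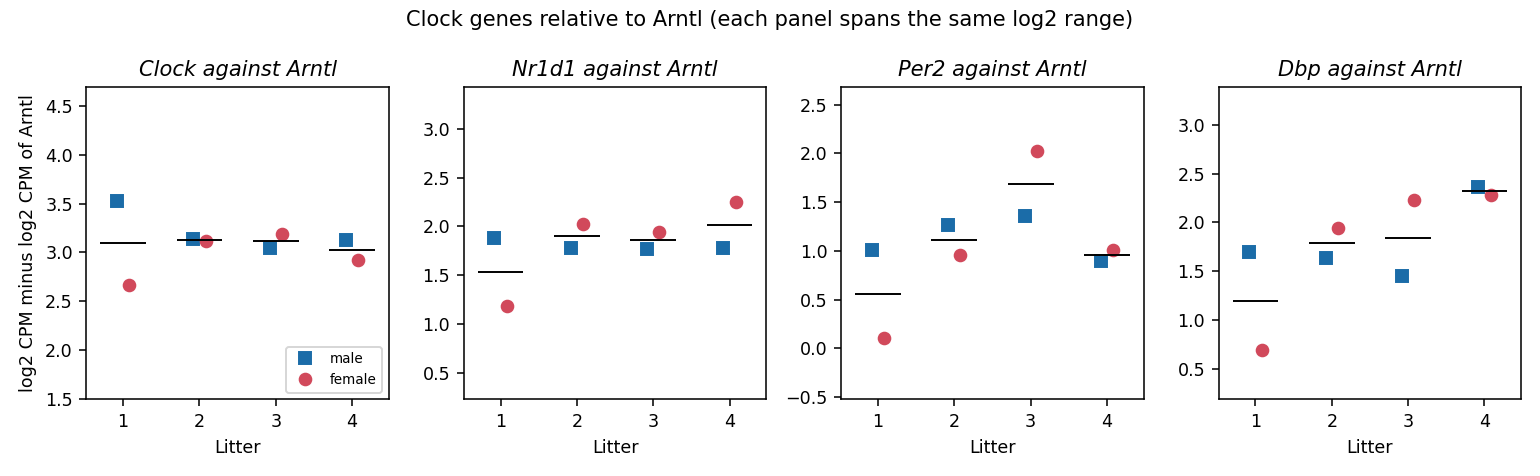
Difference in log2 CPM between a clock gene and Arntl in each library, by litter, with squares for males, circles for females and a line at the litter mean; every panel spans the same distance. Clock keeps litter means from 3.03 to 3.13, Per2 is highest in litter 3 at 1.69 and Dbp in litter 4 at 2.32, and the female of litter 1 is the lowest point in each of the 4 panels.

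Likeness over the 8 libraries was described with Pearson's r of log2 CPM after removal of the sex means, among 11157 other genes with a mean of at least 50 counts. Libraries of a litter share their litter, so no p is given. Nr1d2 stood 14th of 11157 in likeness to Dbp, with r = 0.96, and Tsc22d3, a rhythmic and glucocorticoid-induced gene, stood 259th with 0.86. Tef had 0.73 and Clock and Arntl had -0.57 and -0.55. The period and cryptochrome genes and Nr1d1 had 0.36 to 0.54. Without litter 3, over 6 libraries, Nr1d2 had 0.98, 91st of 11229, and Clock -0.95, 298th from the lowest. The other core genes then had 0.94 (Cry2), 0.59 (Nr1d1), 0.47 (Per3), 0.46 (Cry1), 0.16 (Per2), 0.08 (Per1) and -0.64 (Arntl). The genes most like Dbp were Fkbpl (0.99), Ddx19a (0.98), Thap7 (0.98), Pef1 (0.96) and Bet1l (0.96), and the least like were Palm2 (-0.98), Gfpt1 (-0.98), Sntb1 (-0.97), Trak2 (-0.96) and Ccnd2 (-0.96). No core clock gene was among these 10.

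Arntl was described in the same way. Clock stood 348th of 11157 with r = 0.60 and Nr1d2 was 728th from the lowest with -0.50. Per2 had 0.14, Nr1d1 0.06 and Npas2, the gene of an alternative partner of BMAL1, -0.15. Without litter 3, over the 6 remaining libraries, the other core genes ran from Per3 at -0.87, 218th of 11229 from the lowest, through Cry2 (-0.72), Nr1d2 (-0.69), Dbp (-0.64), Nr1d1 (-0.53), Cry1 (-0.36), Per2 (0.0058) and Per1 (0.36) to Clock (0.62), 1127th from the highest. The genes most like Arntl were Kdm4c (0.92), Zfp618 (0.92), Plxna3 (0.92), Nhej1 (0.91) and Arl6 (0.91), and the least like were Tmem86a (-0.96), Gm10250 (-0.94), BC017643 (-0.93), Zkscan3 (-0.91) and Slc35c1 (-0.91).

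Of 34 other clock genes in 3 lists, 33 were tested and 15 differed between litters, against 32.1% of all genes. In the list of secondary loop and PAR bZIP factors, 4 of 10 did. Tef and Hlf, the D-box factors related to DBP, were higher in litter 3 by 0.57 (SE 0.10, edgeR adjusted p = 0.00141) and 0.49 (SE 0.08, 0.00131) and lower in litter 1 by -0.45 (0.0145) and -0.32 (0.029). Bhlhe40, an E-box repressor, was higher in litter 3 by 0.54 (0.00246), and Rora, with 0.53 there (0.0383), did not pass over all litters (0.0973). In litter 3, 5 of the 10 rose and 0 fell, where 13.6% and 14.8% of all genes were called. Npas2 and Nfil3, which follow Arntl in phase in adult tissues, ran from -0.09 to 0.15 and from -0.14 to 0.15 over the 4 litter comparisons and did not pass.

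Among kinases, ubiquitin ligases and partners of the clock proteins, 4 of 11 differed between litters, near the 32.1% of all genes. Csnk1e, a kinase that marks PER proteins for decay, was higher in litter 3 by 0.38 (SE 0.07, edgeR adjusted p = 0.00137). Gsk3b was lower in litter 4 by -0.40 (SE 0.06, 0.00429) and higher in litter 2 by 0.25 (0.0368). Timeless, which also acts at replication forks, had a litter 3 mean of 5.02 ± 1.36 CPM (SD, n = 2) and a litter 1 mean of 14.7 ± 1.13 CPM, a difference of -1.28 in litter 3 (SE 0.21, 0.00106). The median of the list in litter 3 was 0.04, with 3 genes called higher and 1 lower, where 13.6% and 14.8% of all genes were.

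Rhythmic output genes differed between litters for 7 of the 12 tested, against 32.1% of all genes. In litter 3 Sik1 was higher by 0.91 (SE 0.10, edgeR adjusted p = 4.88e-05), Pdk4, which holds back glucose oxidation, by 0.73 (SE 0.09, 0.00011), Nampt, which makes the NAD+ precursor, by 0.71 (SE 0.09, 0.000261), Tspan4 by 0.49 (0.00759) and Tsc22d3 by 0.25 (0.0153). Leo1 and Por were lower by -0.56 (0.0014) and -0.34 (0.0143). The list median was 0.19 with 5 genes called higher and 2 lower, where 13.6% and 14.8% of all genes were. Usp2, Wee1, Klf15, Kcnip2 and Noct did not pass. Lonrf3 was too low to be tested. Without litter 3, 5 of the 33 genes of the 3 lists passed the litter test, where 13.7% of all genes did.

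**Figure D5:**
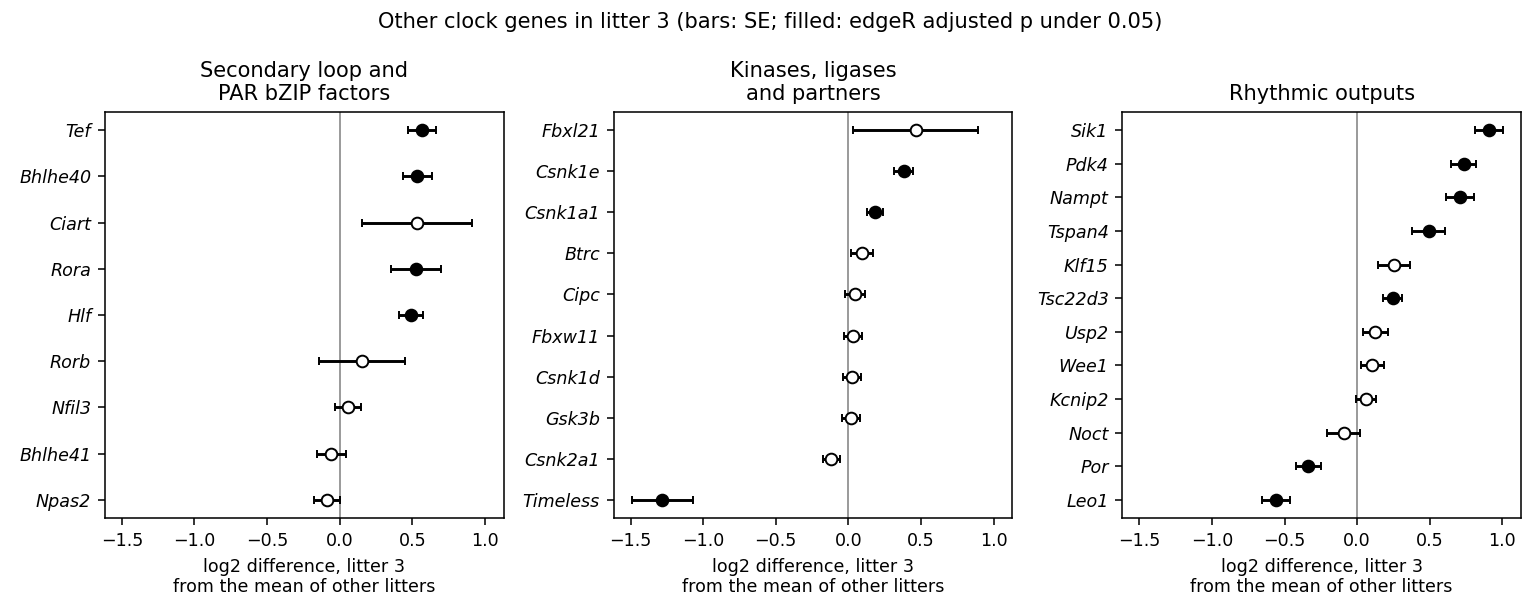
Log2 difference of litter 3 from the mean of the other 3 litters for 31 further clock genes in 3 lists, with bars of 1 SE and filled points for an edgeR adjusted p-value under 0.05. Sik1 stands furthest to the right at 0.91 and Timeless furthest to the left at -1.28, while Npas2 and Nfil3 lie near 0.

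Between the sexes, none of the 10 clock genes passed in edgeR (0 at an unadjusted p-value under 0.05) or in DESeq2 (0 likewise), where 0.0436% of all genes passed in edgeR, 0.0363% higher and 0.00726% lower in males. Male minus female differences ran from -0.17 for Nr1d1 (SE 0.12) to 0.18 for Cry1 (SE 0.12), with a median of -0.07. Comparing the animals of a litter with each other, with litter as a block, also called 0 of the 10, where 0.211% of all genes passed, and Cry1 had the lowest unadjusted p-value (0.0426, adjusted 0.417). In all 4 litters the male had more Clock, Cry1 and Cry2 than the female. The gap was as small as 0.02 in log2 CPM, for Clock in litter 1 and Cry2 in litter 4. How many of all genes kept 1 direction in every litter was not counted. In the blocked fit Clock differed by 0.11 (SE 0.05, unadjusted p = 0.0569, edgeR adjusted p = 0.443).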

How the data were processed

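The authors deposited unnormalized read counts for 48440 gene symbols in 1 table with a column for each of the 8 samples; per the submitters' processing notes STAR 2.7.3a and build mm10 were used. The counting program, annotation and strand setting are not given in the sources used here. Per the labels' protocols, libraries came from a stranded total RNA kit with single-end reads of 100 bases. Counts summed to 14226342 to 24910243 per library.

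Tests used edgeR 4.0.16 and, as an alternative, DESeq2 1.42.0, in R 4.3.3. Genes were filtered with filterByExpr on sex and scaled with TMM. Litter was tested as 3 coefficients together in a model with sex (3 residual degrees of freedom), and each litter against the mean of the other 3. Sex was tested without a litter term (6 residual degrees of freedom). The quasi-likelihood test with Benjamini-Hochberg adjustment over 13771 genes was used, with a threshold of 0.05. SE is the log2 difference divided by the square root of F. Log2 CPM used a prior count of 2.

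The numbers pair the samples, since the labels say that a number is a litter; after removal of the sex means, male and female of a litter correlated at 0.37 to 0.70 across genes and other pairs at -0.48 to 0.27. The 10 genes and the lists were chosen with earlier results of these data known. Named genes were the 10, list genes past the litter test, and the 5 most and least like Arntl or Dbp; others were named after their values were seen, and some list genes are counted but not reported by name here. Scripts were tested on simulated data, where the litter test made more false calls than its threshold allows. Positions are from GENCODE M21 on GRCm38, the assembly called mm10. Alternatives were library size scaling, DESeq2, other count filters, no sex term, a litter block, and leaving out each library or litter.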

Additional observations from a re-analysis of the deposited data

Results flagged for a closer look

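Per2 in the female of litter 3 stood far from the other 3 females, at 44.65 CPM against 17.11 to 20.19 CPM. The gap took up a share of 0.888 of the range of the 4 females. The male of that litter, at 33.9 CPM, was the highest of the males but not as far from the next, at 26.9 CPM. In all, 20 groups of 4 libraries were examined in this way, 10 genes in each sex, and 1 was picked out, where chance gives about 1.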

How the results depend on the processing

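For the clock genes 22 litter values were followed, each range over litters and each difference that passed. Of 362 alternative values, 308 kept their side of the threshold, 47 were no longer past it and 7 newly passed it. Among the differences 0 turned sign, while a range cannot be negative and so could not turn. Differences that had not passed were left out, such as that of Per1 in litter 2, which did turn sign. Leaving out 1 library or litter, the genes called by litter numbered 1898 to 4586 and the clock genes among them 3 to 8 of 10, with 5 to 16 of the other clock genes. In litter 1 the counts were 359 to 2906 genes and 0 to 6 clock genes, in litter 2 153 to 1407 and 0 to 1, in litter 3 1704 to 4177 and 2 to 8, and in litter 4 322 to 1984 and 0 to 4. The lowest of these in litters 1, 3 and 4 came from leaving out a library of that litter, which leaves 1 library in it. By sex they were 5 to 8 genes and 0 clock genes. The litter block (replicate block) gave 29 genes by sex against 6, and changed no call of a clock gene. With no filter on low counts 7 clock genes were called in litter 1, 4 in litter 4, and 1249 genes in litter 2 against 575. That fit gave edgeR adjusted p-values of 9.35e-41 and 4.9e-28 for the Per1 and Per2 ranges over litters. The main fit gave 0.0201 and 0.000623 at nearly the same log2 values. With a mean of at least 50 counts litter 2 had 345 genes. Without the sex term litter 2 had 365 genes and litter 4 had 834 against 1447. The share of called genes that were higher was 47.9% in litter 3 and 44.8% in litter 4, but 58.8% and 14.9% with library size alone; by sex it was 5 of 6 genes, and 5 of 9 with DESeq2. The cause was not tested. Arntl had the fewest counts of the 10, 159 to 387 per library, and an SE of 0.17 to 0.18 on the log2 scale; Cry1, at 225 to 406 counts, had 0.09, and Per1, at 866 to 2127, had 0.21 to 0.23.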
